A study of Mus musculus with 12 samples.

Results

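The genes examined here encode molecular chaperones, the proteins that help other proteins fold, together with the J-domain partners and nucleotide exchange factors of the HSP70 chaperones, the disulfide isomerases of the endoplasmic reticulum and the transcription factor HSF1. They were chosen by symbol, namely every gene in both deposited tables whose name begins with Hsp, Dnaj, Cct (followed by a digit from 2 to 8), Bag (a digit from 1 to 6) or Pdia (a digit), and in addition Canx, Calr, Tcp1 and Hsf1. The rule found 50 of the 6429 genes in the tables. Their proteins were assigned to the cytosol and nucleus for 33 genes, to the endoplasmic reticulum for 10 and to the mitochondrion for 4, and no place was assigned for Dnajc4, Dnajc22 and Dnajc25. A further 49 symbols that match the rule, among them Cct3, Cct6a, Hspa1a, Hspa1b, Hspb1, Hsph1, Pdia4 and Pdia6, have counting windows but no row in the tables and were not analysed here. How those rows were filtered is not stated in the tables.

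RNA polymerase II (Pol II) on chromatin was measured by ChIP-seq in epithelium of the adult mouse duodenum, with 3 Pol II libraries and 1 input library for each of 3 groups. WT crypt and WT villus came from wild-type mice that received the vehicle of ethanol and corn oil without tamoxifen, and their tissue stood in EDTA for 35 min. The third group was villus of mice carrying a tamoxifen-induced double knockout of Hnf4a and Hnf4g, the genes of 2 related transcription factors of the gut (DKO). These mice received 50 mg/kg tamoxifen a day on 2 days, were killed 1 day after the last injection, and their tissue stood in EDTA for 25 min, so genotype, tamoxifen and EDTA time cannot be told apart between the villus groups. In all groups the EDTA was at 3 mM, and a filter held back villi and let crypts through. The strain and the driver of the Cre are not given in the labels used here.

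Pol II signal at the targeted genes was higher, not lower, in the libraries labelled DKO. With WT villus set over the villi labelled DKO, the authors' deposited table had a log2 fold change of -0.54 ± 0.14 (SE) at Hnf4a and of -1.45 ± 0.22 at Hnf4g. Which bases were deleted and whether the counted windows cover them is not given in the sources used here, so these values do not show that the genes were intact. All 13 enterocyte markers there were lower in the libraries labelled DKO, with a median log2 fold change, WT over labelled DKO, of 2.44. The group is called the villi labelled DKO throughout, and each direction between the villus groups rests on the tables' names. Against crypt, WT villus carried more signal at 13 of 13 enterocyte markers in the table, and less at 5 of 5 markers of crypt stem and dividing cells, of 15 listed. The tables hold no value per library, so each value below is the authors' estimate over libraries with its standard error, and the depth of single libraries and the spread between them are not given here. The mean signal of the chaperone genes ran from 27.3 to 419 size-factor-normalised counts (median 157), against 13.1 to 6634 (median 144) over all genes. Which windows the tables counted is not stated in them, and overlaps between genes, where named below, are as they stand in the authors' separate window files. Signal grows with window length as well as with Pol II density, so levels are compared between groups and not between genes.

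Cells sort their chaperones by compartment. In the cytosol, HSP70 and HSP90 chaperones with J-domain partners and the ring-shaped TRiC chaperonin fold new proteins, and under heat or proteotoxic stress HSF1 binds heat shock elements, arrays of inverted GAA units, to raise their transcription. In the endoplasmic reticulum, BiP (Hspa5), GRP94 (Hsp90b1), the lectins calnexin and calreticulin and the disulfide isomerases fold secreted and membrane proteins, and the unfolded protein response raises them through the endoplasmic reticulum stress element. In the mitochondrion, mortalin (Hspa9) draws in imported proteins and the HSP60 and HSP10 chaperonin (Hspd1 and Hspe1) folds them, and the steady renewal of the gut lining by dividing crypt cells depends on such folding of new proteins.

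The promoters were searched first for these elements, since the rule used names alone. RefSeq promoter windows of build GRCm38.p6, from 250 bases before to 50 after an annotated start, were held for 41 of the 50 genes, in 54 windows. The other 9 had no window and were not searched. They were Hspa8, Hsp90aa1, Hsp90ab1, Hspa9, Hsf1, Cct4, Dnajc5, Bag4 and Dnajc22. The windows of the authors' counts are on mm9, so coordinates of the promoters and of the counts are not to be mixed. A heat shock element of 3 units, written GAANNTTCNNGAA and searched on both strands, was present in windows of 3 genes, Hspd1, Hspe1 and Dnajb6, in 0.603% of all 32851 promoter windows and in 0.659% of the tested genes with a window. In the authors' mm9 windows Hspd1 and Hspe1 are transcribed away from each other from starts 216 bp apart, while a second annotated Hspd1 start lies beyond the Hspe1 start, inside that gene. The 2 genes share 1 element. In the shared stretch, at chr1:55088039-55088096 and printed on the Hspd1 strand, 2 overlapping matches run over the capitals, the first starting 144 bases before an annotated Hspd1 start. The Dnajb6 stretch is at chr5:29735832-29735884 on the plus strand, with the match starting 46 and 127 bases before 2 annotated starts. These stretches are shown because they hold every full match among the 41 promoters, and the capitals mark the matched bases.
Hspd1 and Hspe1: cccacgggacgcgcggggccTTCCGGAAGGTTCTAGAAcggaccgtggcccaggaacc
Dnajb6: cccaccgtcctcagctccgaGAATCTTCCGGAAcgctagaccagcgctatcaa

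The endoplasmic reticulum stress element, written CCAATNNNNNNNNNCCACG, was present in 4 of the 41 genes, in 0.119% of all promoter windows and in 0.194% of the tested genes with a window. All 4, Hspa5, Hsp90b1, Canx and Calr, encode proteins of the endoplasmic reticulum, where 10 of 10 genes had a promoter window, and Hsp90b1 held 2 copies. The background above already ties these genes to this element, so its presence here is a description and not an independent finding. The second form of the element, ATTGGNCCACG, was present in Dnajb11 alone among the 41 and in 0.0365% of all windows. The first matched base lay 65 bases before the start of Hspa5 (chr2:34772005-34772063, plus strand), 145 before that of Canx (chr11:50325780-50325838, minus strand) and 162 before that of Calr (chr8:84847055-84847113, minus strand). For Hsp90b1 (chr10:86705513-86705676, minus strand) the copies began 212 and 107 bases before the start, and for Dnajb11 (chr16:22857832-22857882, plus strand) the match began 8 bases after it. These 5 stretches, on the strand of their gene and with the matches in capitals, show how the element lies in either orientation.
Hspa5: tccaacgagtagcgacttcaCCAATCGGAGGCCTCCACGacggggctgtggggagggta
Canx: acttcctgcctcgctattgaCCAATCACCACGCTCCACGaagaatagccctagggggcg
Calr: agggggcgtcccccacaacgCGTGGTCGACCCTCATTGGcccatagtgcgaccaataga
Hsp90b1: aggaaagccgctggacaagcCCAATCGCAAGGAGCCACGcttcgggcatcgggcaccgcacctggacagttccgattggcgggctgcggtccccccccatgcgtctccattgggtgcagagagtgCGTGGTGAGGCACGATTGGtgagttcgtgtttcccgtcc
Dnajb11: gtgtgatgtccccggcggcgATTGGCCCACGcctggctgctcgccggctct

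Shorter forms were common. Paired heat shock units, GAANNTTC, were present in 9 of the 41 genes, against 6.90% of the tested genes with a window, and the other pairing, TTCNNGAA, in 5 genes (12.2%) against 7.92%. Both are contained in the 3-unit form. The CCAAT box, which is part of the endoplasmic reticulum stress element, was in 22 of the 41 genes (53.7%) against 42.8%, and TATAAA in 4 genes (9.76%) against 9.86%. Over all windows of this length the shares were 7.86%, 8.52%, 37.4% and 13.6%. The median GC content was 62.8% in the windows of the chaperone genes, 60.7% in those of all tested genes and 52.7% in all windows.

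Along the crypt-villus axis, the called chaperone genes mostly carried more Pol II in crypt than in villus. When WT villus was set against WT crypt in the authors' deposited table, 21 of 50 had an adjusted p under 0.05, the threshold for a call used throughout, against a background of 37.4% of all genes. Of these, 18 were higher in crypt (background 18.8%) and 3 in villus (background 18.6%), the latter being Dnajb9, Dnajb1 and Hsf1. The log2 fold change of villus over crypt was below 0 at 40 of the 50 genes, with a median of -0.25, against -0.04 over all genes. By compartment, the authors' deposited table gave 11 of 33 genes higher in crypt and 2 in villus for the cytosol and nucleus (median -0.24), 4 and 1 of 10 for the endoplasmic reticulum (median -0.26), and 3 and 0 of 4 for the mitochondrion (median -0.90). No mitochondrial gene was higher in villus at an unadjusted p under 0.05 either. These medians describe small groups and were not tested against each other. In a Wald test against a log2 change of 0.5 in either direction 0 of the 50 passed, against 3.92% of all genes. By direction, 3.45% of all genes passed higher in villus and 0.467% higher in crypt. Of the 23 genes whose windows overlap no other gene 6 were higher in crypt and 1 in villus, against 18% and 21.3% of all such genes. The windows of the other 27 overlap at least 1 other gene, and not every such overlap is named below. After centring on the median of all genes 13 remained higher in crypt (background 14.8%), without Dnajb6, Cct8, Bag1, Dnajc14 and Dnajb11. In whole epithelium, a change in the share of a cell type and a change of Pol II per cell cannot be told apart.

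**Figure D1:**
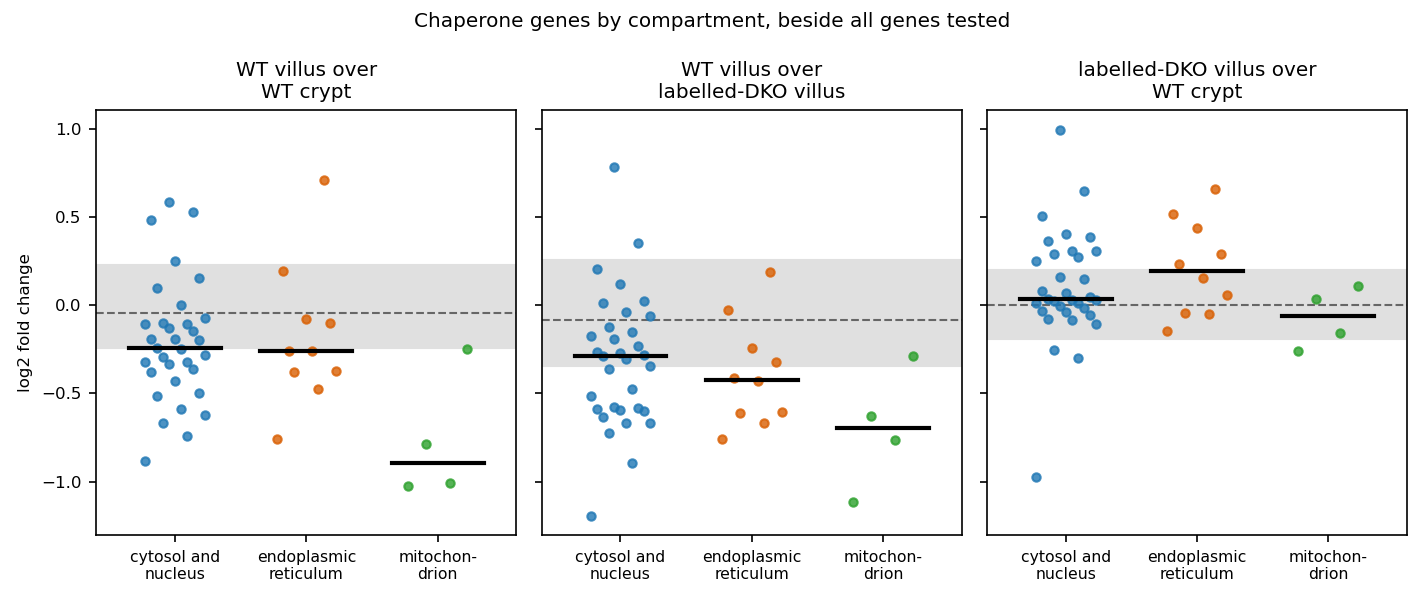
Log2 fold change of Pol II signal (vertical axis) at each chaperone gene (points) by compartment, in the 3 comparisons; black bars are medians, the dashed line and grey band are the median and interquartile range of all 6429 genes. The mitochondrial median is the lowest of the compartments in both deposited comparisons, at -0.90 and -0.70, and is near 0 between labelled-DKO villus and crypt. It rests on 4 genes, of which Hspd1 and Hspe1 may share reads.

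The chaperonin of the mitochondrial matrix showed the largest differences. For Hspd1, which encodes HSP60, the group means rebuilt from the tables were 185 in crypt, 91.9 in WT villus and 199 in the villi labelled DKO, in normalised counts. The WT villus mean was the low one of the 3. The authors' deposited table gave a log2 fold change of villus over crypt of -1.01 ± 0.18 with a DESeq2 adjusted p of 5.85e-07, a signal 2.01-fold higher in crypt. Its partner Hspe1, which encodes the HSP10 lid, had rebuilt means of 85.4, 41.9 and 71.3 in the same order and a deposited log2 fold change of -1.03 ± 0.22 (DESeq2 adjusted p 3.19e-05). Of all 6429 genes, counted from the one most tilted toward crypt, Hspe1 was number 54 and Hspd1 number 58. In the authors' mm9 windows Hspd1 ran from 55134177 to 55145437 on chromosome 1, minus strand, and Hspe1 from 55144892 to 55147661, plus strand. The promoter windows overlap, and in the window files a read pair was assigned to every window it touched without regard to strand, so these 2 values may share reads.

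Mortalin, the HSP70 of the matrix encoded by Hspa9, had rebuilt means of 221 in crypt, 128 in WT villus and 198 in the villi labelled DKO. Its deposited log2 fold change of villus over crypt was -0.79 ± 0.16 (DESeq2 adjusted p 4.45e-06), 1.73-fold higher in crypt, and its windows overlap no other gene. Dnajc19, a J-domain protein of the import motor, did not pass the test, at -0.25 ± 0.16 in the authors' deposited table (adjusted p 0.226). Among 8 other genes of mitochondrial folding and proteolysis, of 13 listed, 4 were higher in crypt in the authors' deposited table (background 18.8%). Higher in villus were 0 (background 18.6%), and none was so at an unadjusted p under 0.05 either. The median was -0.41, and the largest change was that of the protease gene Lonp1, at -0.86 ± 0.14.

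**Figure D2:**
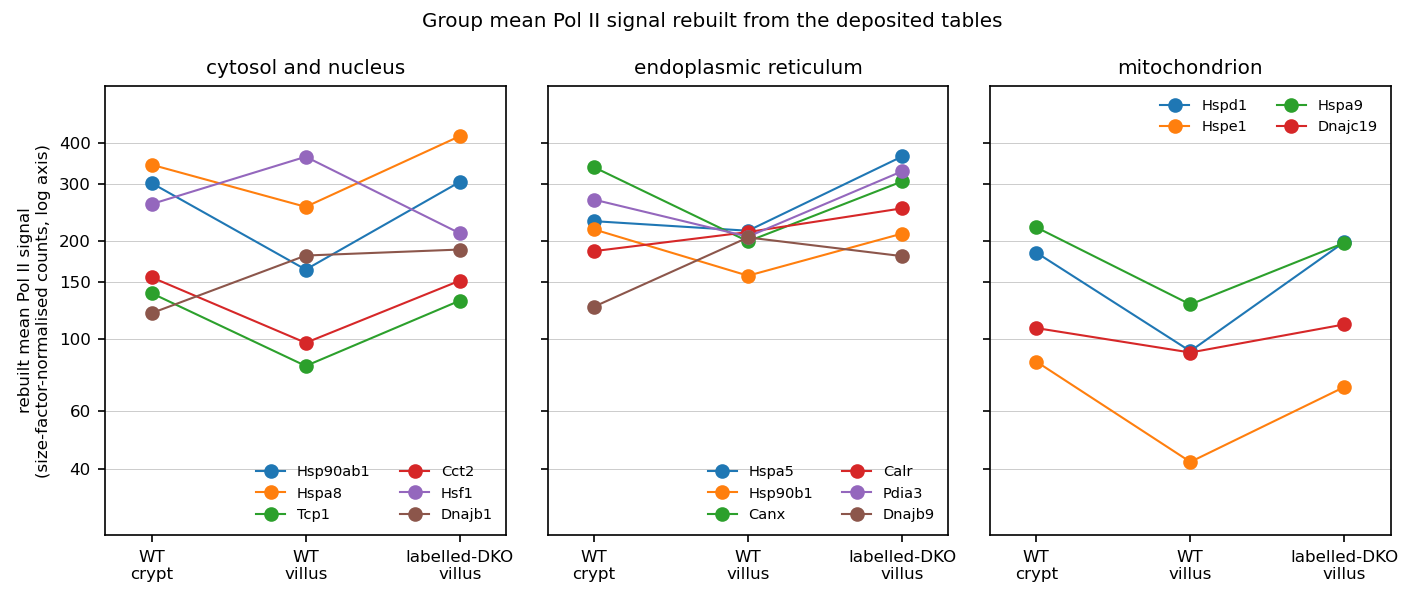
Group mean Pol II signal (vertical axis, size-factor-normalised counts, log scale) rebuilt from the deposited tables for 16 chaperone genes in WT crypt, WT villus and labelled-DKO villus; lines join the values of 1 gene, and no error bars are drawn because the tables give errors of differences only. Hspd1 falls from 185 in crypt to 91.9 in WT villus and stands at 199 in labelled-DKO villus, while Hsf1 and Dnajb9 are highest in WT villus.

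In the cytosol, most genes of TRiC, the chaperonin that folds actin and tubulin, were higher in crypt. Of its 6 subunit genes in the authors' deposited table, 5 passed in that direction (background 18.8%). The change was largest for Tcp1, the alpha subunit, at -0.74 ± 0.12 (DESeq2 adjusted p 3.15e-09), with rebuilt means of 138 in crypt, 82.7 in WT villus and 131 in labelled-DKO villus. The deposited log2 fold changes of the others called were -0.67 ± 0.14 for Cct2 (beta), -0.59 ± 0.16 for Cct4 (delta), -0.50 ± 0.12 for Cct7 (eta) and -0.32 ± 0.12 for Cct8 (theta), with DESeq2 adjusted p from 7.94e-06 to 0.0290. The authors' deposited table had Cct5 (epsilon) at -0.19 ± 0.15 (adjusted p 0.348), and its 95% interval ran from -0.50 to 0.11. The related gene Cct8l1, at a mean signal of 33.4, was at -0.51 ± 0.27 (adjusted p 0.124). Tcp1 windows overlap those of Mrpl18, which is transcribed the other way and was at -0.15 ± 0.12 in the authors' deposited table. They also overlap Acat3 and Snora20.

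The 2 cytosolic HSP90 genes differed in whether they passed the test. Hsp90ab1, the constitutive form, had rebuilt means of 302 in crypt, 164 in WT villus and 304 in labelled-DKO villus. Its deposited log2 fold change of villus over crypt was -0.88 ± 0.20 (DESeq2 adjusted p 9.31e-05). The windows of Slc35b2 lie 108 bp away on the other strand, and that gene was at -0.76 ± 0.17 in the authors' deposited table; its part in the Hsp90ab1 value was not tested. Hsp90aa1, the stress-inducible form, was at -0.38 ± 0.23 (adjusted p 0.202) with a 95% interval from -0.84 to 0.08, so a change as large as that of Tcp1 lies within its interval. Whether the 2 genes differ from each other was not tested.

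Of the 9 HSP70 chaperones and exchange factors in the cytosol, 33.3% were called in the authors' deposited table, against 37.4% of all genes. Higher in villus were 0 (background 18.6%), with none so at an unadjusted p under 0.05 either. Higher in crypt were 3 (background 18.8%). These were Hspa4, an HSP110-type exchange factor, at -0.36 ± 0.13, Hspa14, a ribosome-linked HSP70, at -0.33 ± 0.12, and Bag1, an exchange factor, at -0.28 ± 0.10, with DESeq2 adjusted p of 0.0198, 0.0201 and 0.0227. Hspa8, which encodes the constitutive HSC70, had rebuilt means of 344, 255 and 421 in crypt, WT villus and labelled-DKO villus. Its deposited change of -0.43 ± 0.25 did not pass (adjusted p 0.179). Bag3, the stress-inducible exchange factor, was at -0.10 ± 0.08 (adjusted p 0.386). The windows of Bag1 overlap those of Chmp5, which was at -0.33 ± 0.09, and the part of Chmp5 in the Bag1 value was not tested.

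J-domain genes, whose products hand substrates to HSP70, went both ways. Dnajb1, which encodes the HSP40 of the heat shock response, was higher in villus, with rebuilt means of 120 in crypt, 181 in WT villus and 189 in labelled-DKO villus. The authors' deposited table gave 0.59 ± 0.12 (DESeq2 adjusted p 9.63e-06). Dnajb6, an anti-aggregation J-domain protein, and Dnajc8, a splicing-linked one, were higher in crypt at -0.19 ± 0.07 and -0.29 ± 0.09 (adjusted p 0.0339 and 0.00748). The other 9 cytosolic J-domain genes did not pass, among them Dnaja1 at 0.25 ± 0.16, whose promoter window overlaps that of Gm6297 (0.62 ± 0.14). Dnajb7 at -0.62 ± 0.29 lies inside Xpnpep3, and Dnajb3 at 0.53 ± 0.25 lies inside the Ugt1a cluster, so reads of the host genes may count toward both.

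Hsf1, which encodes the main factor of the heat shock response, was higher in villus. Its rebuilt means were 260 in crypt, 364 in WT villus and 212 in labelled-DKO villus. The deposited log2 fold change of villus over crypt was 0.48 ± 0.11 (DESeq2 adjusted p 1.09e-04). In mm9 its windows ran from 76307692 to 76331085 on chromosome 15, plus strand, and the promoter window overlaps that of Bop1, which is transcribed the other way. The windows of Dgat1, a triglyceride synthesis gene of enterocytes that faces Hsf1, begin 856 bp beyond its end. Dgat1 had a larger difference of the same sign, 0.86 ± 0.18 in the authors' deposited table, and its part in the Hsf1 value was not tested.

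**Figure D3:**
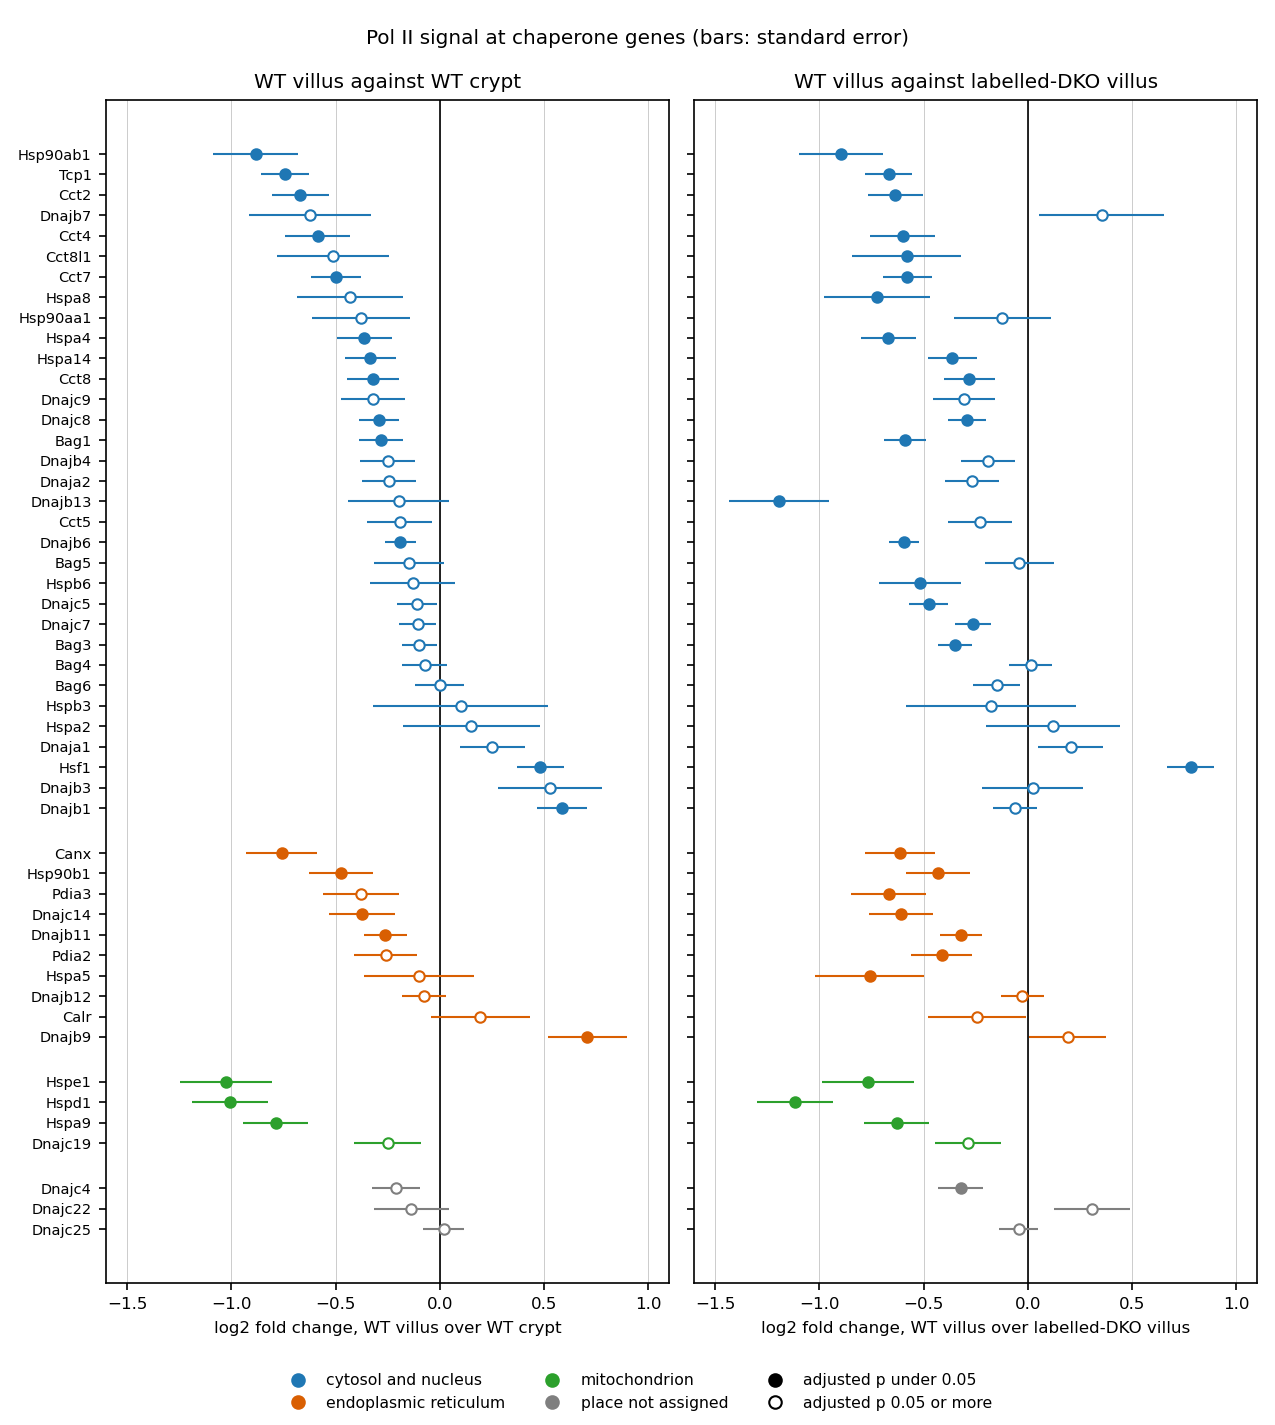
Deposited log2 fold change (horizontal axis, bars are standard errors) of all 50 chaperone genes, for WT villus over WT crypt (left) and WT villus over labelled-DKO villus (right), coloured by compartment, with filled points for an adjusted p under 0.05. Most filled points lie left of 0 in both panels, and Hsf1 is the gene with a filled point right of 0 in both.

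In the endoplasmic reticulum, 2 of the 4 genes of its main chaperones and lectins passed, both higher in crypt (background 18.8%). Canx, which encodes the membrane lectin calnexin, had rebuilt means of 338 in crypt, 200 in WT villus and 305 in labelled-DKO villus, and a deposited log2 fold change of villus over crypt of -0.76 ± 0.17 (DESeq2 adjusted p 6.11e-05), 1.69-fold higher in crypt. Hsp90b1 (GRP94) followed at -0.47 ± 0.15 (adjusted p 0.00807), with rebuilt means of 218, 157 and 211. Hspa5 (BiP) was at -0.10 ± 0.26 (adjusted p 0.808), and its 95% interval of -0.61 to 0.42 includes changes as large as that of Hsp90b1. Calr, which encodes the soluble lectin calreticulin, was at 0.19 ± 0.24 (adjusted p 0.562), with an interval from -0.27 to 0.66.

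The J-domain partners of BiP moved in opposite directions. Dnajb9 (ERdj4), which links BiP to the stress sensor IRE1, was higher in villus at 0.71 ± 0.19 in the authors' deposited table (DESeq2 adjusted p 9.22e-04), with rebuilt means of 126 in crypt, 205 in WT villus and 180 in labelled-DKO villus. Dnajb11 (ERdj3), a general folding partner, was higher in crypt at -0.26 ± 0.10 (adjusted p 0.0326). The membrane J-domain gene Dnajc14 was at -0.37 ± 0.16 (adjusted p 0.0489), just under the threshold. Its windows overlap those of Ormdl2, which was at -0.11 ± 0.19 here and at -0.52 ± 0.19 between the villus groups. The part of Ormdl2 in the Dnajc14 values was not tested. The disulfide isomerase genes Pdia3 and Pdia2 did not pass, at -0.38 ± 0.18 and -0.26 ± 0.15 in the authors' deposited table.

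Other genes of folding and the unfolded protein response in the endoplasmic reticulum were also mixed. Of 21 in the tables, of 32 listed, the authors' deposited table had 3 higher in villus and 4 in crypt, with a median of -0.11. In all 33.3% were called, against 37.4% of all genes. The backgrounds were 18.6% higher in villus and 18.8% in crypt. The largest changes were 0.64 ± 0.16 at P4hb, which encodes a disulfide isomerase whose symbol falls outside the rule, and -0.52 ± 0.17 at Erp29. Of 12 cytosolic co-chaperone and prefoldin genes, of 20 listed, 3 were higher in crypt and 0 in villus, against the same backgrounds. None was higher in villus at an unadjusted p under 0.05 either. The median was -0.18, and the largest change was that of Fkbp4, an HSP90 co-chaperone, at -0.71 ± 0.09.

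Between WT villus and the villi labelled DKO, all but 1 of the called chaperone genes carried more Pol II in the labelled-DKO villi. Of the 50, 30 passed the test in the authors' deposited table, against a background of 51.9%. Higher in labelled-DKO villus were 29 (background 29.5%), and higher in WT villus was Hsf1 alone (background 22.4%). The median log2 fold change, WT over labelled-DKO, was -0.32, against -0.08 over all genes, and 42 of 50 were below 0. By compartment, 18 of 33 cytosolic and nuclear genes, 7 of 10 in the endoplasmic reticulum and 3 of 4 in the mitochondrion were higher in labelled-DKO villus in the authors' deposited table, with medians of -0.29, -0.42 and -0.70. In the endoplasmic reticulum and the mitochondrion 0 genes were higher in WT villus, also at an unadjusted p under 0.05. Dnajc4, with no place assigned, was the remaining one. The WT villus libraries stand in both comparisons, so a deviation of those libraries shifts both in the same direction. Against a change of 0.5 in either direction, 2 of the 50 passed, Hspd1 and Dnajb13, both higher in labelled-DKO villus. Of all genes 9.91% passed, 7.53% higher in WT villus and 2.38% in labelled-DKO villus. Centring on the median of all genes ended the calls of Hspb6, Dnajc4, Cct8, Dnajc7 and Cct8l1.

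The mitochondrial chaperonin again had large differences. The authors' deposited table gave -1.11 ± 0.18 for Hspd1 (DESeq2 adjusted p 8.97e-09), 2.17-fold higher in labelled-DKO villus, -0.77 ± 0.22 for Hspe1 (adjusted p 0.00157) and -0.63 ± 0.15 for Hspa9 (adjusted p 1.93e-04). Dnajc19 was at -0.29 ± 0.16 (adjusted p 0.118). Of the 8 other mitochondrial folding and protease genes, 5 were higher in labelled-DKO villus (background 29.5%) and 0 in WT villus (background 22.4%). None was higher in WT villus at an unadjusted p under 0.05 either. The median was -0.42, with Lonp1 at -0.66 ± 0.14 in the authors' deposited table.

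In the cytosol, the largest change was that of Dnajb13, a J-domain gene known from sperm flagella and motile cilia. Its rebuilt means were 217 in crypt, 189 in WT villus and 432 in labelled-DKO villus, and the authors' deposited table gave -1.19 ± 0.24 (DESeq2 adjusted p 4.02e-06). The next gene, Ucp2, lies 3390 bp away on the other strand and was at -0.44 ± 0.19. Hsp90ab1 was at -0.90 ± 0.20 (adjusted p 4.13e-05), beside -1.04 ± 0.17 at its neighbour Slc35b2. Hspa8 passed here, at -0.72 ± 0.25 (adjusted p 0.0107), as did Hspa4 at -0.67 ± 0.13 (adjusted p 1.85e-06). Bag1 and Bag3, which encode exchange factors, had deposited changes of -0.59 ± 0.10 and -0.35 ± 0.08 (adjusted p 3.34e-08 and 9.17e-05).

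Dnajb6, whose promoter holds the heat shock element printed above, had the smallest p among the chaperone genes in this comparison. Its rebuilt means were 199 in crypt, 175 in WT villus and 263 in labelled-DKO villus, and the deposited change of WT over labelled-DKO villus was -0.59 ± 0.07 (DESeq2 adjusted p 7.84e-16). The J-domain genes Dnajc5, Dnajc8 and Dnajc7 were also higher in labelled-DKO villus, at -0.47 ± 0.09, -0.29 ± 0.09 and -0.26 ± 0.09 (adjusted p 2.12e-06, 0.00427 and 0.00544). Of TRiC, 5 of the 6 subunit genes were higher in labelled-DKO villus in the authors' deposited table (background 29.5%). The changes were -0.67 ± 0.11 for Tcp1, -0.63 ± 0.13 for Cct2, -0.60 ± 0.16 for Cct4, -0.58 ± 0.12 for Cct7 and -0.28 ± 0.12 for Cct8. Cct5 was at -0.23 ± 0.15 (adjusted p 0.203), and Cct8l1 passed narrowly at -0.58 ± 0.26 (adjusted p 0.0498). Dnajb1 was at -0.06 ± 0.11 (adjusted p 0.655), with a 95% interval from -0.27 to 0.15.

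Hsf1 was the exception, with more signal in WT villus, at 0.78 ± 0.11 in the authors' deposited table (DESeq2 adjusted p 2.80e-11), a 1.72-fold difference. Dgat1, the gene that faces it, was at 1.41 ± 0.18 in the same direction, and its part in the Hsf1 value was not tested. The small heat shock protein gene Hspb6 was at -0.52 ± 0.20 (adjusted p 0.0197) and overlaps 3 other genes, and Hspb3, at the lowest mean signal of 27.3, was at -0.18 ± 0.41 (adjusted p 0.744).

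In the endoplasmic reticulum, Hspa5 (BiP) had rebuilt means of 231 in crypt, 215 in WT villus and 364 in labelled-DKO villus, and the authors' deposited table gave -0.76 ± 0.26 between the villus groups (DESeq2 adjusted p 0.00906). Pdia3, a disulfide isomerase that works with the lectins, was at -0.67 ± 0.18 (adjusted p 7.72e-04), with rebuilt means of 269, 207 and 328. The windows of Ell3 lie 340 bp from those of Pdia3 on the other strand, and Ell3 was at -0.85 ± 0.17. Its part in the Pdia3 value was not tested. Canx was at -0.61 ± 0.17, Dnajc14 at -0.61 ± 0.15, Hsp90b1 at -0.43 ± 0.15, Pdia2 at -0.41 ± 0.15 and Dnajb11 at -0.32 ± 0.10, all past the threshold in the authors' deposited table. Calr was at -0.24 ± 0.24 (adjusted p 0.398), with rebuilt means of 186, 213 and 252, and Dnajb9 was at 0.19 ± 0.18 (adjusted p 0.388). Of the 21 other genes of this compartment 3 were higher in WT villus (background 22.4%), led by P4hb at 1.00 ± 0.16. Higher in labelled-DKO villus were 6 (background 29.5%), led by Erp29 at -0.87 ± 0.17 in the authors' deposited table. Among the 12 co-chaperone and prefoldin genes 6 were higher in labelled-DKO villus and 0 in WT villus, against the same backgrounds. None was higher in WT villus at an unadjusted p under 0.05 either. The largest change was that of Pfdn1 at -1.34 ± 0.26.

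No table sets labelled-DKO villus against crypt, so this difference was formed by subtracting the 2 deposited log2 fold changes, with the largest standard error it can have. It tests directly whether the changes of a gene in the 2 tables differ. Of the 50 chaperone genes 4 passed, all higher in labelled-DKO villus, against backgrounds of 13.6% in all and 6.41% in that direction. These were Dnajb13 at 1.00 ± 0.34 (adjusted p 0.0305), Dnajb1 at 0.65 ± 0.16 (adjusted p 0.00101), Dnajb6 at 0.40 ± 0.10 (adjusted p 0.00151) and Dnajc5 at 0.37 ± 0.13 (adjusted p 0.0454), by a Wald test with Benjamini-Hochberg adjustment over all genes. All 4 are cytosolic J-domain genes, of 12 in the tables. None was higher in crypt by this Wald test (background 7.19%), with 1 gene, Dnajb7, at an unadjusted p under 0.05. These counts depend on the standard error. With an estimated one that leaves out the shared WT villus term, 8 were higher in labelled-DKO villus (background 15.6%), the added ones being Hspa5, Dnajb9, Bag1 and Bag3, and 3 in crypt (background 14.3%), Hsf1, Dnajb7 and Dnajc22. The median over the 50 was 0.05, against 0.0026 over all genes.

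For the mitochondrial chaperonin this difference did not pass, and its intervals, built on the largest standard error, were wide. Hspd1 was at 0.11 with a 95% interval from -0.40 to 0.62, and Hspe1 at -0.26 with an interval from -0.87 to 0.35. For Hspa9 it was -0.16 (interval -0.59 to 0.27) and for Hsp90ab1 0.01 (interval -0.55 to 0.57). The narrowest intervals among the TRiC subunits were those of Tcp1, from -0.39 to 0.24, and Cct7, from -0.25 to 0.41. Hspa5, called between the villus groups and not between villus and crypt, was at 0.66 with an interval from -0.07 to 1.39 (adjusted p 0.265), and passed with the smaller standard error (adjusted p 0.0412). Hsf1 was at -0.30 (interval -0.61 to 0.01, adjusted p 0.226) and also passed with the smaller one (adjusted p 0.0316). Whether the 2 results of these genes differ therefore turns on that choice. Hspa8 passed with neither, at 0.29 (interval -0.41 to 1.00, adjusted p 0.716 and 0.429).

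Each called gene with a printed element was lower in WT villus. So were most called chaperone genes with no match or with no promoter window to search. Hspd1, Hspe1 and Dnajb6, with the 3-unit heat shock element, were higher both in crypt and in labelled-DKO villus. Of all 34 tested genes with that element, the authors' deposited table had 14 higher in crypt and 4 in villus, and 20 higher in labelled-DKO villus and 5 in WT villus. With the 3 chaperone genes left out these counts were 11, 4, 17 and 5 of 31. Over all genes the shares in the same order were 18.8%, 18.6%, 29.5% and 22.4%. Among the 4 chaperone genes with the endoplasmic reticulum stress element, Canx and Hsp90b1 were called in both comparisons, Hspa5 in one and Calr in neither. The other 6 tested genes with it, among them Syvn1, Creld2 and Derl3 of the degradation and folding machinery, gave 0 calls between villus and crypt. They gave 2 between the villus groups, both higher in labelled-DKO villus. Of all genes 37.4% were called between villus and crypt and 51.9% between the villus groups. A match is a description of letters in the window, and binding of HSF1 or of factors of the unfolded protein response was not measured.

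Several other groups of genes moved with the same contrasts. Over all genes, 18.6% were called higher in villus and 18.8% in crypt. Between the villus groups these shares were 22.4% higher in WT villus and 29.5% in labelled-DKO villus. Immediate early genes were higher in villus than in crypt at 11 of 12 in the table (median 1.12). Dnajb1, Dnajb9 and Hsf1 went in that direction, and 18 chaperone genes were called in the opposite one. In the other comparison 8 of 12 immediate early genes were higher in WT villus, with Egr1 the other way at -1.18 ± 0.22. Dnajb1 and Dnajb9 were not called there. Against labelled-DKO villus, enterocyte markers were higher in WT villus at 13 of 13 (median 2.44), in the direction of Hsf1. Of 5 crypt stem and dividing cell markers, of 15 listed, 3 were higher in labelled-DKO villus (median -0.62), in the direction of Hspd1, Hsp90ab1 and the TRiC genes. Axin2 and Sox9 did not pass there, at -0.38 ± 0.17 and 0.26 ± 0.19, so Sox9 had the opposite sign. The median of the 5 between villus and crypt was -0.68. Of 9 goblet, Paneth and enteroendocrine markers, of 12 listed, 4 were higher in villus and 2, Agr2 and Spink4, in crypt, and the same 2 were higher in labelled-DKO villus. Of 10 immune markers the table holds Cd74 alone, at 0.72 ± 0.24 and 1.33 ± 0.24 in the 2 comparisons of the authors' deposited table, and of 8 mesenchyme markers it holds none. The part of cell makeup and of handling in the chaperone results was not tested.

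The precision behind these values differed strongly among the chaperone genes. Their median standard error was 0.15, near the 0.14 of all genes. Against the 500 genes nearest in mean signal, however, the standard error between villus and crypt stood at percentile 96.8 for Hspa5, 96.6 for Hspa8, 95.8 for Calr, 94.8 for Hsp90aa1 and 89.6 for Hsp90ab1. It stood at percentile 7.0 for Dnajb6. In all 8 of the 50 genes lay above percentile 90 and 1 at or below percentile 10. Among the 8 were also Hspb3 (percentile 99), Dnajb3 (96.2), Dnajb13 (95) and Dnajb7 (93). Whether the large errors come from single libraries cannot be read from the tables. The mapping filter of the window counts also drops reads that fit more than 1 place. Whether the same filter lies behind the deposited fold changes is not stated. If so, genes with near-identical processed copies, such as Hspa8, Hspe1 and Hsp90ab1, may be undercounted by a share that is not known here.

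**Figure D4:**
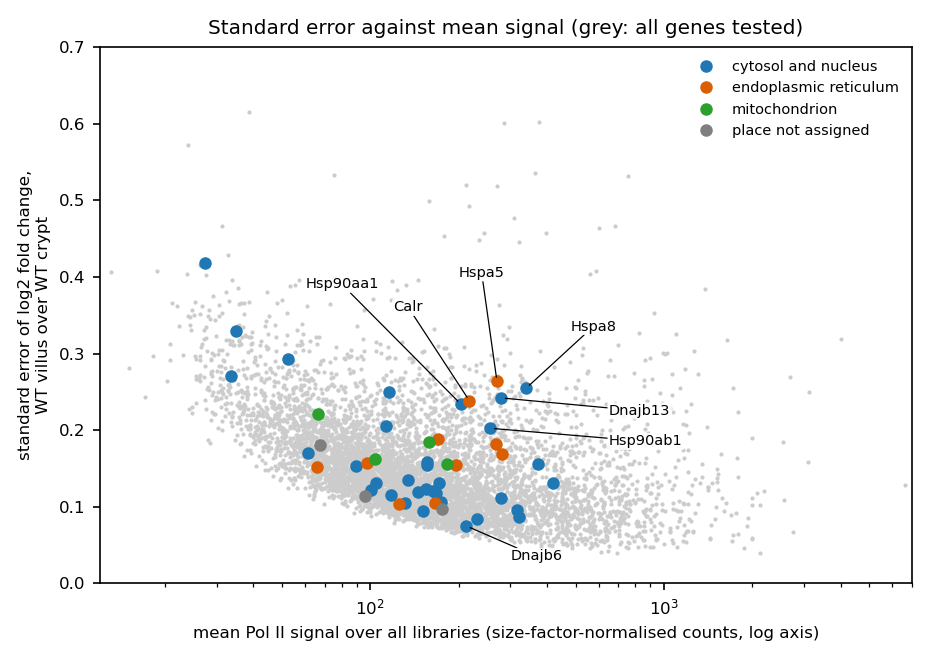
Standard error of the log2 fold change of WT villus over WT crypt (vertical axis) against the mean Pol II signal over all libraries (horizontal axis, size-factor-normalised counts, log scale); grey points are all 6429 genes and coloured points the 50 chaperone genes. Hspa5, Hspa8, Calr, Hsp90aa1 and Dnajb13 lie above most genes of like signal, while Dnajb6 lies at the lower edge.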

How the data were processed

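Pol II ChIP-seq of 9 libraries and 3 inputs was used through the 2 tables of comparisons that the authors deposited. The submitters' processing notes name Bowtie2 2.2.6, SAMtools 0.1.19, Picard, featureCounts of Subread 2.03 and DESeq2 1.36.0, on mm9. Per the file headers, featureCounts 2.0.3 counted read pairs at a minimum mapping quality of 30, ignored duplicates, assigned a pair to every window it overlapped and used no strand. The authors deposited, at each of 6429 genes, a mean signal (counts divided by size factors, over all libraries), a log2 fold change with its standard error, a Wald score, a p-value and a Benjamini-Hochberg adjusted p-value. The 18 count columns of the window tables carry no names, match no sample and were used in no step, so the planned edgeR tests per library were not run.

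Computed here, with Python 3.11.15, pandas 2.3.3 and scipy 1.17.1, were counts of called genes (adjusted p under 0.05) and medians. Group means were rebuilt from the mean signal and both fold changes, taking groups as equal in size and fold changes as unshrunken. The difference of the 2 fold changes was given its largest standard error, a Wald test and adjustment over all genes. This step was tested on simulated data, and the outcome is not given here. Overlaps with other genes, promoter motifs on both strands, and standard errors against the 500 genes nearest in mean signal were also computed. Intervals are 95% normal intervals. Those of the difference of the 2 fold changes use the largest standard error and can be too wide. The genes, compartments, motifs and lists were chosen with earlier results of these data known. Genes given in full were main chaperones of each compartment and the called genes with the largest changes; of each list, the largest called change each way was named. Where nothing says that replicates came from separate mice, p-values measure only the spread between libraries.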

Additional observations from a re-analysis of the deposited data

How the results depend on the processing

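No paired analysis was possible because the tables give 1 estimate per gene over all libraries and the count columns carry no names. For the same reason, leaving out single libraries, other normalizations and count filters were not run. Percentages in square brackets are shares of all genes called under the same setting. Where counts are split by direction, the total share comes first and the shares by direction follow in the same order. Between WT villus and crypt 21 were called (3 higher in villus, 18 in crypt). Past a log2 fold change of 1, 2 remained (0 and 2) [4.43%, 3.52% and 0.918%]. In a test against changes up to 0.5, 0 passed (0 and 0) [3.92%, 3.45% and 0.467%]. At an adjusted p under 0.01, 11 were higher in crypt [12.5%]. Among the 23 genes with no overlapping gene, 7 were called (1 and 6) [39.3%, 21.3% and 18%]. Between WT and labelled-DKO villus 30 were called (1 higher in WT, 29 in labelled-DKO villus). Past a change of 1 there were 2 (0 and 2) [8.69%, 6.53% and 2.16%]. The test against 0.5 was passed by 2 (0 and 2) [9.91%, 7.53% and 2.38%]. Without overlapping genes 12 were called (0 and 12) [54.5%, 25.3% and 29.2%]. Between labelled-DKO villus and crypt 4 were called (4 higher in labelled-DKO villus, 0 in crypt). At an adjusted p under 0.01 there were 2 (2 and 0) [8.68%, 3.92% and 4.76%]. Past a change of 1 there were 0 (0 and 0) [3.47%, 1.8% and 1.66%]. The test against 0.5 was passed by 0 (0 and 0) [1.4%, 0.498% and 0.902%]. A standard error that leaves out the shared WT villus term gave 11 (8 and 3) [30%, 15.6% and 14.3%]. By construction the stricter thresholds ask for larger or surer changes, and the last setting uses a smaller error.

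Centring on the median of all genes ended the crypt calls of Dnajb6, Cct8, Bag1, Dnajc14 and Dnajb11 and the labelled-DKO calls of Hspb6, Dnajc4, Cct8, Dnajc7 and Cct8l1. It turned 4 uncalled differences of WT over labelled-DKO villus positive, to 0.0196 at Dnajb1, 0.0544 at Dnajb12, 0.0409 at Bag5 and 0.0370 at Dnajc25. With a mean signal of at least 100 the mitochondrial median of labelled-DKO villus over crypt turned from -0.0608 to 0.0374, since Hspe1 is left out. With the 250 bases before the start alone, 0 promoters held the second stress element. Over single genes and settings, 165 of 294 called values remained called and 129 lost the call. Of 542 uncalled values 7 gained a call, all with the smaller standard error; stricter thresholds alone cannot add calls. Without values per library the depth limits are not known.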
